A study of Mus musculus with 5 samples.

Results

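The Clec2 genes examined here were Clec2d, Clec2e, Clec2g, Clec2h and Clec2i, a small family of C-type lectin-like genes. Their members on the array were all probe sets whose platform annotation names 1 of these symbols and no other, which gave 6 of the 22626 probe sets tested. Clec2h had 3 of them, Clec2d, Clec2g and Clec2i had 1 each, and Clec2e had 0 and was not analysed here, so 4 of the 5 genes were measured, of 12393 genes with such a probe set on the array. Each probe set was read separately, because probes to close paralogs can cross-hybridise. The family was taken up because Clec2h stood lower in HNF4 null than in control colons in this same comparison. The null against control values of the members are therefore given as a description. Standard errors and intervals show their spread, and counts past a threshold are printed only beside the share over all probe sets, as support for nothing.

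The samples were colons of mouse fetuses at E18.5, with 1 array for each of 5 animals. The HNF4 null group held 3 fetuses, null_59, null_60 and null_426, of genotype HNF4LoxP/LoxP FoxA3Cre. The control group held 2 fetuses, CONTROL_406 and CONTROL_421, of genotype HNF4LoxP/+ FoxA3Cre, so the controls carried the Cre transgene and 1 floxed allele as well. The Cre takes its name from Foxa3, which is active in gut endoderm, and the labels say no more about which cells it reaches. Whole colon RNA was measured, so fewer cells of a type and less RNA per cell cannot be told apart. The labels do not say whether fetuses shared a litter, and p-values measure only the spread between these 5.

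Clec2 genes encode type II membrane proteins with a C-type lectin-like domain. They are ligands of receptors encoded by the Klrb1 genes, which natural killer cells and some T cells carry, and engagement of such a receptor can restrain or trigger the lymphocyte. Clec2d, also called Clr-b, is a broadly expressed ligand of the inhibitory receptor Klrb1b, whereas Clec2h, also called Clr-f, is known from gut epithelium. Ligand and receptor genes lie interleaved in the natural killer gene complex on chromosome 6. In RefSeq's table of assembly GRCm38.p6 the order of the coding genes runs Klrb1a, Clec2h, Klrb1, Klrb1c, Klrb1b, BC035044, Clec2i, Clec2g, Clec2f, Klrb1f, Clec2e and Clec2d.

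The Clec2h, Clec2e and Clec2i promoters are shown because Clec2h fell most in nulls, Clec2e is its near copy and Clec2i differed the other way. Each is the stretch of 250 bases before the annotated transcript start, 5' to 3' on the gene's strand, from RefSeq (GRCm38.p6). Clec2h lies at chr6:128662135-128662384 on the plus strand, Clec2e at chr6:129100904-129101153 on the minus strand and Clec2i at chr6:128887337-128887586 on the plus strand. Capitals mark each AAAGTCC, the core of the HNF4 recognition sequence CAAAGTCCA.
Clec2h: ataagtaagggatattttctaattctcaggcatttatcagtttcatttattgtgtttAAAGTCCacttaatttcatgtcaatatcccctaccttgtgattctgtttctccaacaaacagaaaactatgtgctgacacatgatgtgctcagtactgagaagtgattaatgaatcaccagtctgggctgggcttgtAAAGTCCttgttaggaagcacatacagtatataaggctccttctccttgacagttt
Clec2e: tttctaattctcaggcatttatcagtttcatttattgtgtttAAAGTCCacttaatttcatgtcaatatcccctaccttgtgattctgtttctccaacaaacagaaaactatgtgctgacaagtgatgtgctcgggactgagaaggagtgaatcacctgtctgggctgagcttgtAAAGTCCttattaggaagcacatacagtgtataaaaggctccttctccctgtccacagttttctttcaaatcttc
Clec2i: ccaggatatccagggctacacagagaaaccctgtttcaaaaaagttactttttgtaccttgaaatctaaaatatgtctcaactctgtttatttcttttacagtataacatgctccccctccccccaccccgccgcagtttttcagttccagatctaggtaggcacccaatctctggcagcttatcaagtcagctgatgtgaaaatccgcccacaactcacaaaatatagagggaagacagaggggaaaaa

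AAAGTCC was searched on both strands (GGACTTT on the other) in windows of 300 bases, from 250 before to 50 after the annotated start. It occurred at 2 places in the Clec2h window, at -193 to -187 and at -56 to -50 from the start, and at 2 places in the Clec2e window, at -208 to -202 and at -75 to -69. The windows of Clec2d, Clec2g and Clec2i held no match, which says only that these letters are not in this window. Of all 32851 windows in the table, 1382 (4.21%) held at least 1 match and 28 (0.0852%) held 2 or more. The match farther from the start was followed by A in both genes, giving AAAGTCCA, which 410 windows (1.25%) held. The full CAAAGTCCA, which contains both shorter forms, was in none of the 5 genes' windows and in 156 of all windows. TATAAA was found in the Clec2e window, at -46 to -41, and in 13.6% of all windows. At the matching place Clec2h holds cagtatataaggctcc where Clec2e holds cagtgtataaaaggctcc, a similar stretch that the exact search does not count. A match is a description of the letters and was not tested as a binding site.

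By global alignment with no penalty for gaps at the ends, 250 of 268 aligned bases of the Clec2h and Clec2e windows were identical (93.3%). The other 9 pairs of the 5 genes lay between 49.4% (Clec2d with Clec2i) and 64.6% (Clec2d with Clec2g) of aligned bases. As a share of all 300 bases of a window, identity was 83.3% for Clec2h with Clec2e. For the other pairs it was 38.3% (Clec2d with Clec2i) to 54.7% (Clec2d with Clec2g). Near the start, the Clec2h window holds cttgtAAAGTCCttgtt and the Clec2e window cttgtAAAGTCCttatt. Around the farther match both hold tgtttAAAGTCCactta.

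**Figure D1:**
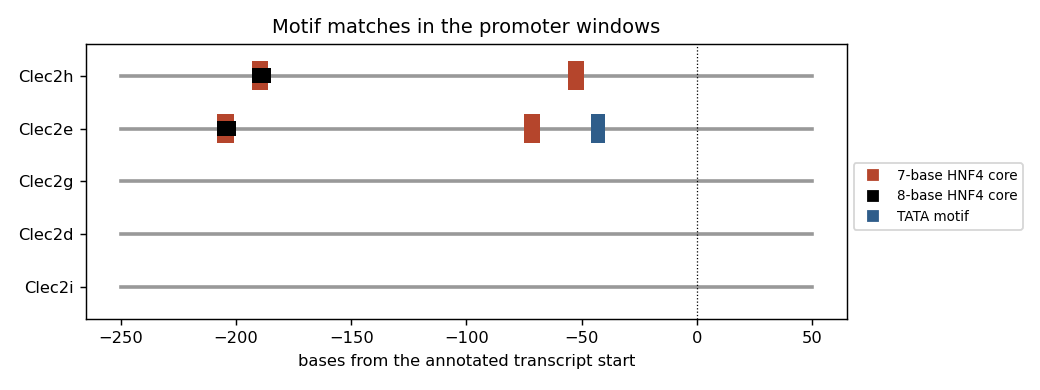
Positions of motif matches in the promoter windows of the 5 Clec2 genes, in bases from the annotated transcript start (dotted line), one grey line per gene. Red blocks are AAAGTCC, black blocks AAAGTCCA and the blue block TATAAA; matches were found in Clec2h and Clec2e only among the 5 genes.

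Median intensities of the 5 arrays ran from 124 to 135. Across probe sets, which are not independent replicates, any pair of arrays correlated at a Pearson r of 0.946 to 0.974. The 3' to 5' ratio of the Gapdh control was 1.47 in CONTROL_421 and 0.767 to 0.895 in the other 4 arrays. The transferrin receptor ratio was 1.51 in CONTROL_421 and 2.69 to 3.48 in the other 4, and the actin ratio 1.44 to 1.83 over all 5. The 4 probe sets of Hnf4a differed by -0.55 to 0.19 on the log2 scale, and limma called 0 of them, with 1 having an unadjusted p under 0.05. The labels name neither the HNF4 gene nor the floxed part, so these probe sets do not settle whether the deletion took place. In the fit across all probe sets (limma, Benjamini-Hochberg adjusted p under 0.05), 28 of 22626 passed, 24 lower and 4 higher in null colons. That count was 8 without null_60, 104 without CONTROL_406 and 18 without CONTROL_421. For a view of dim readings, 14 genes of eye, tooth and testis, listed as unlikely to be transcribed in colon, read between 0.573 and 268 over their 18 probe sets.

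Clec2h, the lectin known from gut epithelium, stood lower in every null array than in either control array on each of its 3 probe sets. Probe set 1424673_at read 51.9 in null_59, 78.0 in null_60 and 24.6 in null_426, against 443 in CONTROL_406 and 433 in CONTROL_421. The controls lay close together and far above the nulls, and the lower control was 5.56 times the highest null. Group means were 51.5 ± 26.7 (SD, n = 3) and 438 ± 6.82 (SD, n = 2), a ratio of 8.5. The log2 difference was -2.84 ± 0.32 (SE), which is 7.18-fold on the log2(intensity + 16) scale, a scale that understates the change of dim probe sets. It was the fifth most negative of all probe sets. Its reading ranked at the 88.3 and 88.4 percentile of the control arrays' probe sets, and between the 6.13 and 30.7 percentile of the null arrays'.

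Probe set 1431240_at, designed to another transcript record of Clec2h, read 62.6, 58.5 and 27.5 in null_59, null_60 and null_426 and 336 and 194 in the controls. Here the controls lay apart from each other, by 1.74-fold, and the lower one was 3.10 times the highest null. The log2 difference was -2.13 ± 0.31 (SE), a 4.37-fold difference. Probe set 1451438_s_at was designed to the same mRNA record as 1424673_at, and its suffix is the array maker's mark for probes that match more than 1 transcript. Its readings were 194, 167 and 160 for null_59, null_60 and null_426, against 401 for CONTROL_406 and 269 for CONTROL_421. The direction was the same but the difference was smaller, -0.87 ± 0.20 (SE), or 1.83-fold. Its null readings did not approach the low levels of the other probe sets of the gene. Without CONTROL_406 the difference of this probe set was -0.62.

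Among the null arrays, null_426 was lowest on all 3 Clec2h probe sets. Its readings relative to the mean of the controls were -3.55, -2.73 and -0.99 on the log2 scale, against -2.72, -1.78 and -0.70 in null_59 and -2.26, -1.87 and -0.92 in null_60. The spread among the nulls was widest on 1424673_at, where the highest null was 3.17 times the lowest. Of the control arrays, CONTROL_406 read higher than CONTROL_421 on 1431240_at and 1451438_s_at, while the pair differed by 1.02-fold on 1424673_at.

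Clec2i, or Clr-g, a ligand of the receptor Klrb1f, was the only member with a difference above 0. Probe set 1422166_at read 360 in null_59, 384 in null_60 and 400 in null_426, against 215 in CONTROL_406 and 357 in CONTROL_421. The 3 nulls lay above both controls, but CONTROL_421 read close to the lowest null. The log2 difference was 0.45 ± 0.22 (SE), and its 95% interval ran from -0.05 to 0.95. It was 0.09 without CONTROL_406 and 0.81 without CONTROL_421, so its size depended on which control was kept.

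Clec2d, the broadly expressed ligand of Klrb1b, read 178, 171 and 214 in the nulls and 198 and 174 in the controls on its probe set 1419477_at. The groups overlapped, and the log2 difference of -0.0041 ± 0.17 (SE) had an interval from -0.39 to 0.38. Its sign changed between settings, from -0.09 to 0.06 when 1 array was left out. Clec2g, another lectin of the cluster, was dim on its probe set 1450317_at, at 25.1, 23.3 and 27.5 in the nulls and 27.9 and 27.4 in the controls. In deposited intensity, null_426 read just above CONTROL_421 there. After normalisation the 3 nulls (5.39, 5.25 and 5.35 on the log2 scale) lay below both controls (5.44 and 5.57). The log2 difference of Clec2g was -0.17 ± 0.16 (SE), with an interval from -0.53 to 0.19. All readings of Clec2d and Clec2g lay inside the range of the eye, tooth and testis genes, as did all null readings of Clec2h. Both controls exceeded that range on 1424673_at, and 1 of them did so on 1431240_at. On 1451438_s_at CONTROL_406 exceeded it, while CONTROL_421, at 269, was level with its top of 268. Clec2i exceeded the range in 3 nulls and 1 control.

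**Figure D2:**
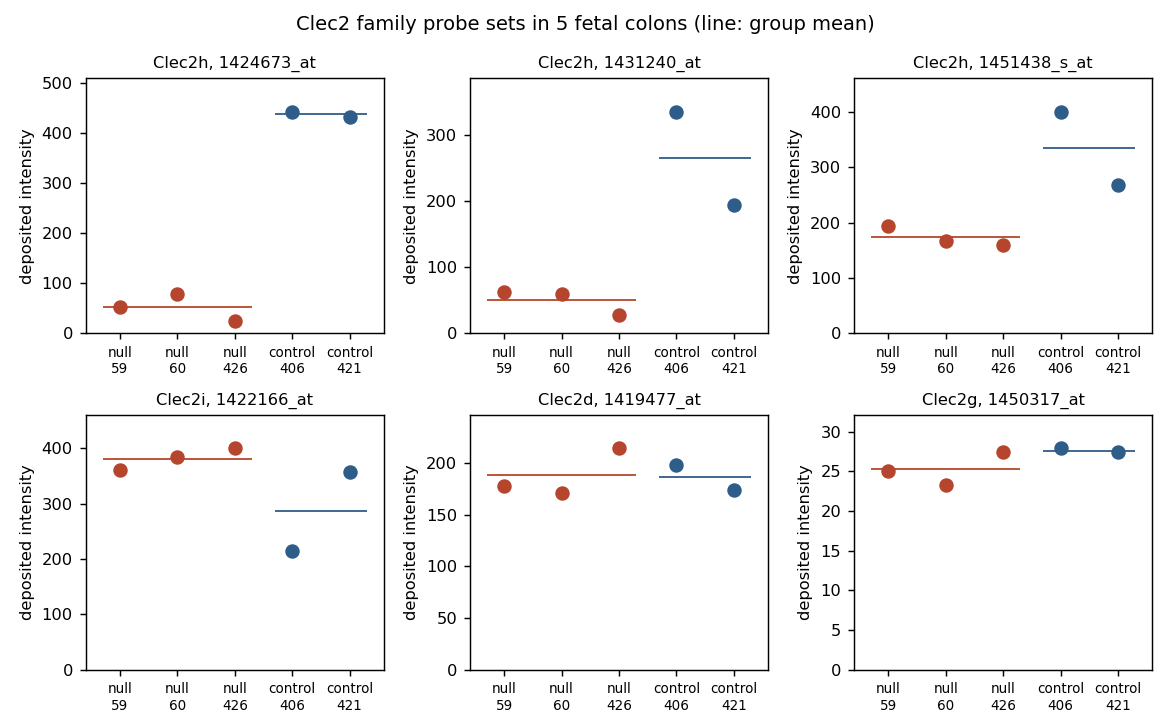
Deposited intensity of each of the 6 Clec2 probe sets in the 5 arrays, on linear axes that start at 0 (red, HNF4 null; blue, control; line, group mean). All 3 Clec2h panels show the nulls below both controls, by most on 1424673_at (24.6 to 78.0 against 433 and 443), while Clec2i, Clec2d and Clec2g do not.

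In that fit, 2 of the 6 Clec2 probe sets passed, both of Clec2h, against 0.124% of all probe sets (0.106% lower and 0.0177% higher in null). That count was 1 without null_60, null_426 or CONTROL_406 and 0 without CONTROL_421. At an unadjusted p under 0.05 it was 3, all lower, against 7.15% of all probe sets (4.33% lower and 2.82% higher). In deposited intensity, before normalisation, the 3 nulls lay below both controls on 3 members, against 9.64% of all probe sets. They lay above both on 1, against 14.6% (either way, 4 against 24.2%). These shares are printed as background only, since the family was chosen from this contrast. The median difference of the 6 was -0.52, against 0.0164 over all probe sets, and 5 of the 6 were below 0, including Clec2d at -0.0041, against 47.1% of all.

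The receptors of these ligands were measured by 6 probe sets of Klrb1a, Klrb1b and Klrb1f, of which limma called 0, and 0 had an unadjusted p under 0.05. Klrb1, the receptor known to bind Clec2h, was not analysed here. Klrb1a, a receptor of natural killer cells, read 40.4, 43.6 and 66.5 in null_59, null_60 and null_426 and 33.2 and 34.5 in the controls, a log2 difference of 0.30 ± 0.19 (SE, limma adjusted p = 0.780). The nulls lay above both controls, though by less than the spread among the nulls. Klrb1f, the receptor known to bind Clec2i, read 40.7 ± 8.19 (SD, n = 3) in nulls and 36.3 ± 2.45 (SD, n = 2) in controls, a difference of 0.01 ± 0.17 (SE, limma adjusted p = 0.993). The 4 probe sets of Klrb1b, the receptor of Clec2d, differed by -0.18 to -0.07, with limma adjusted p from 0.835 to 0.932. None of the receptor readings, which ran from 1.28 to 66.5, left the range of the eye, tooth and testis genes.

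**Figure D3:**
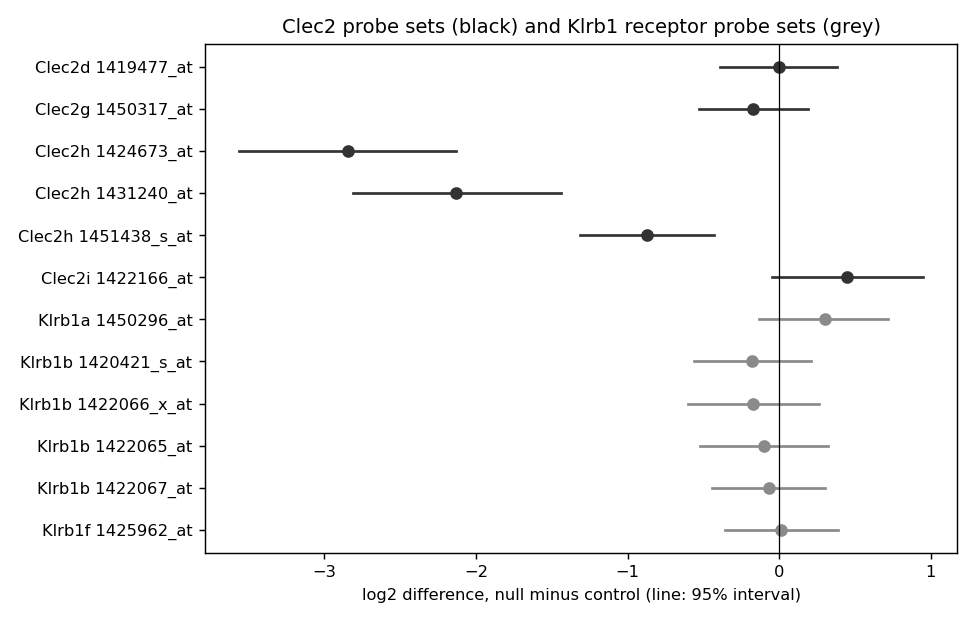
Log2 difference, HNF4 null minus control, of the 6 Clec2 probe sets (black) and the 6 Klrb1 receptor probe sets (grey), with 95% intervals from the fit across all probe sets. The 3 Clec2h probe sets are centred at -2.84, -2.13 and -0.87; the family was chosen from this contrast, so the black intervals show spread and test nothing.

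Genes that share the chromosomal neighbourhood of the Clec2 genes did not pass. Within 500 kb of the first or last of the 5 genes, 21 other genes were measured by 32 probe sets, of which 0 passed limma's threshold and 0 had an unadjusted p under 0.05. Their differences ran from -0.61 for Klrc2, a natural killer cell receptor subunit, to 0.51 for Foxm1, a cell cycle transcription factor, with a median of 0.06. Clec2m, a further lectin gene next to Cd69 in the complex, read 113, 88.3 and 125 in nulls and 84.8 and 97.9 in controls, a difference of 0.15 ± 0.19 (SE, limma adjusted p = 0.871).

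Among the other lectin-like genes of the natural killer gene complex, 0 of 19 probe sets (16 genes) passed limma's threshold and 0 had an unadjusted p under 0.05, with a median difference of 0.05. The lowest unadjusted p values belonged to Klra17 (0.36), Klrc2 (-0.61) and Clec1b (-0.30). Among other genes with a C-type lectin domain, 0 of 71 probe sets (56 genes) passed limma's threshold, 2 were lower and 2 higher at an unadjusted p under 0.05, and the median was 0.06. Reg4, a secreted lectin of the gut epithelium, read 256, 303 and 235 in nulls and 490 and 316 in controls (-0.55 ± 0.20, SE, limma adjusted p = 0.643). Ly75, a receptor of dendritic cells, differed by 0.55 and Clec11a, a secreted growth factor, by -0.36. The lowest value of this list, -1.42 for Clec4g, rests on a deposited reading of -3725 in null_426 and is named after its value was seen.

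Other ligands that epithelia show to lymphocytes, such as class I-like molecules, cytokines and costimulators, had 0 of 46 probe sets past limma's threshold and 1 higher at an unadjusted p under 0.05, with a median of 0.00045. That 1 was Icosl, a costimulatory ligand (0.44), followed by Cd1d1, which presents lipids (-0.40), and the cytokine gene Il7 (-0.38).

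Lymphocyte and leukocyte markers were examined because Klrb1 and Clec2 genes are also expressed in blood cells. Of 34 probe sets of natural killer and T cell markers, 0 passed limma's threshold and 1 was lower and 1 higher at an unadjusted p under 0.05, with a median of 0.01. Cd4 differed by -0.66, Id2 by 0.54 and Itgae, an integrin of intraepithelial lymphocytes, by -0.32. The summed intensity of this list was 5635 to 6637 in nulls and 5844 and 6021 in controls, and no marker was at 0. Its median intensity was 89.2 in nulls and 91.0 in controls, below the 110 and 103 of the eye, tooth and testis genes. None of those genes was at 0 either, so a reading above 0 does not show that a marker was detected. Of 25 probe sets of macrophage and leukocyte markers, 0 passed limma's threshold and 2 were lower and 1 higher at an unadjusted p under 0.05 (Ctss -0.94, Cd14 -0.61 and S100a8 0.46). Their sum was 3358 to 3816 in nulls and 3852 and 3813 in controls, with no marker at 0 and a median difference of -0.04. The part of these cells in the Clec2h values was not tested.

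Epithelial markers were examined because Clec2h is known from gut epithelium. Of 31 probe sets of colon epithelium markers, 0 passed limma's threshold, 7 were lower and 0 higher at an unadjusted p under 0.05 (4.33% and 2.82% of all probe sets), and 23 had a difference below 0 (47.1% of all). The median difference was -0.15, against 0.0164 over all probe sets. In deposited intensity the nulls lay below both controls on 11 of the 31 and above both on 0 (whole array, 9.64% and 14.6%). The homeobox gene Cdx2 differed by -0.89, the keratin gene Krt20 by -0.87 and the adhesion gene Epcam by -0.66. The summed intensity of the list was 47870, 46323 and 39980 in null_59, null_60 and null_426 and 50930 and 50321 in the controls, with no marker at 0. The null arrays lay below both controls, and null_426, which was lowest for Clec2h, was lowest here as well. The lowest place of null_426 was not particular to epithelium. The smooth muscle and mesenchyme list also had its lowest sum in null_426, at 27364, with 27677 in CONTROL_421 and 31904 in CONTROL_406. In that list null_59 and null_60, at 32274 and 32740, lay above both controls. These sums are of deposited intensities, before normalisation between arrays. The most negative difference in this list was the -0.89 of Cdx2, beside -2.84, -2.13 and -0.87 on the 3 Clec2h probe sets.

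In the list of small intestinal and absorptive enterocyte genes, 3 of 33 probe sets fell at limma's threshold, 0 rose and 30 did not pass. Over the whole array 0.106% were called lower. Before adjustment, limma gave p below 0.05 to 9 lower and 0 higher members (whole array, 4.33% and 2.82%). The difference was below 0 for 20 members (whole array, 47.1%), and the median was -0.13. In deposited intensity the nulls lay below both controls on 12 members and above both on 2 (whole array, 9.64% and 14.6%). Mep1b, a brush border metalloprotease, read 36.0 ± 4.32 (SD, n = 3) in nulls and 127 ± 14.2 (SD, n = 2) in controls (limma adjusted p = 0.0103). Cdhr5, a protocadherin of microvilli, fell 3.72-fold (limma adjusted p = 0.0103) and the membrane mucin gene Muc3 4.19-fold (limma adjusted p = 0.0432). Without null_60 the limma adjusted p was 0.0674 for Mep1b, 0.0674 for Cdhr5 and 0.209 for Muc3, and without CONTROL_421 it was 0.0545 for Cdhr5 and 0.251 for Muc3. Without null_426 it was 0.185 for Muc3. The list summed to 3623 to 3874 in nulls and 4922 and 4723 in controls, with 1 gene at or below 0 in some array. The share of epithelium or enterocytes in the Clec2h values was not tested.

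Markers of other tissues gave no call at limma's threshold. In smooth muscle and mesenchyme, 0 of 24 probe sets passed (1 lower and 2 higher at an unadjusted p under 0.05), with Tagln at 0.56, Myh11 at 0.57 and Foxf2 at -0.45. In liver and pancreas, 0 of 16 passed, with both probe sets of Ttr at -1.19 and -1.08 and Cela2a at -0.56. At limma's unadjusted p under 0.05, 4 of the 16 were lower and 0 higher (whole array, 4.33% and 2.82%). The Ttr value of -1.60 without CONTROL_421 was past the threshold (limma adjusted p = 0.0483). In erythroid genes, 0 of 12 passed and 0 had an unadjusted p under 0.05, with Hbb-bh1 at 0.43. In the eye, tooth and testis list, 0 of 18 passed and 0 had an unadjusted p under 0.05, with Prm2 at 0.35.

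**Figure D4:**
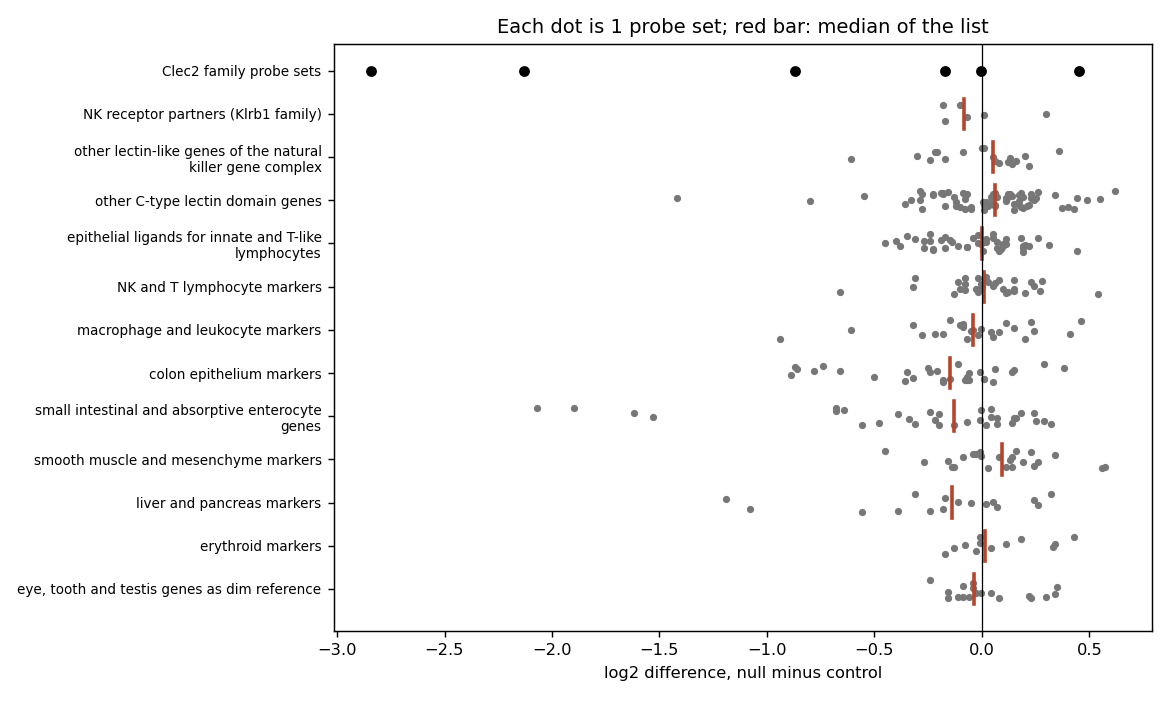
Log2 difference, HNF4 null minus control, of every probe set of each list (grey dots; red bar, median of the list), with the 6 Clec2 probe sets in black at the top. The 2 lowest Clec2h values, -2.84 and -2.13, lie below every value of the lists, of which the lowest is -2.07 for Muc3.

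The genes whose pattern over the 5 arrays was most like Clec2h were found by the root mean square difference of log2 values, each centred on its mean. With 2 groups of arrays this measure is mainly set by the contrast itself, so the genes named are a description. The measure also favours genes that share their lowest array with Clec2h, so that likeness is partly a result of the choice. For 1424673_at the nearest were Sult1b1, a cytosolic sulfotransferase (0.30), Atp12a, the non-gastric proton pump (0.32), Aqp8, a water channel (0.37), Slc26a2, a sulfate transporter (0.38), and Selenop, a selenium carrier (0.46). Its distance to the second Clec2h probe set, 1431240_at, was 0.45, and to 1451438_s_at it was 1.05. Sult1b1 read 38.3, 45.7 and 22.8 in null_59, null_60 and null_426 and 261 and 218 in the controls. Like Clec2h, it was lowest in null_426.

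For 1431240_at the nearest were again Sult1b1 (0.22), then Slc26a2 (0.32), the sulfotransferase gene Sult1d1 (0.32), Gatm, an enzyme of creatine synthesis (0.33), and Selenop (0.35). Slc26a2 read 201, 228 and 96.2 in nulls and 703 and 845 in controls, and Gatm 26.3, 33.4 and 16.3 against 217 and 62.5. Each was lowest in null_426 too. The third probe set, 1451438_s_at, was nearest to Endod1 (0.06), 1700010I14Rik (0.09), the class I gene H2-Q2 (0.10), Fbp2, an enzyme of gluconeogenesis (0.11), and the carboxylesterase gene Ces1c (0.12). These differed by -0.99 to -0.73, like 1451438_s_at itself, and shared 0 genes with the lists of the other 2 probe sets. Both facts follow from the measure, because the log2 values were centred but not scaled to a common size of difference. H2-Q2 and 1700010I14Rik were dim, at 23.1 and 33.3 in CONTROL_406, their highest array.

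How far each value depends on the settings differed between the members. On 1424673_at the difference lay between -3.24 and -2.14 over 7 other settings and between -3.13 and -2.53 when each array was left out in turn. On 1431240_at it lay between -2.47 and -1.52 and between -2.44 and -1.79. On 1451438_s_at it lay between -0.92 and -0.73 over 8 settings and between -1.10 and -0.62 with an array left out. All of these were below 0.

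**Figure D5:**
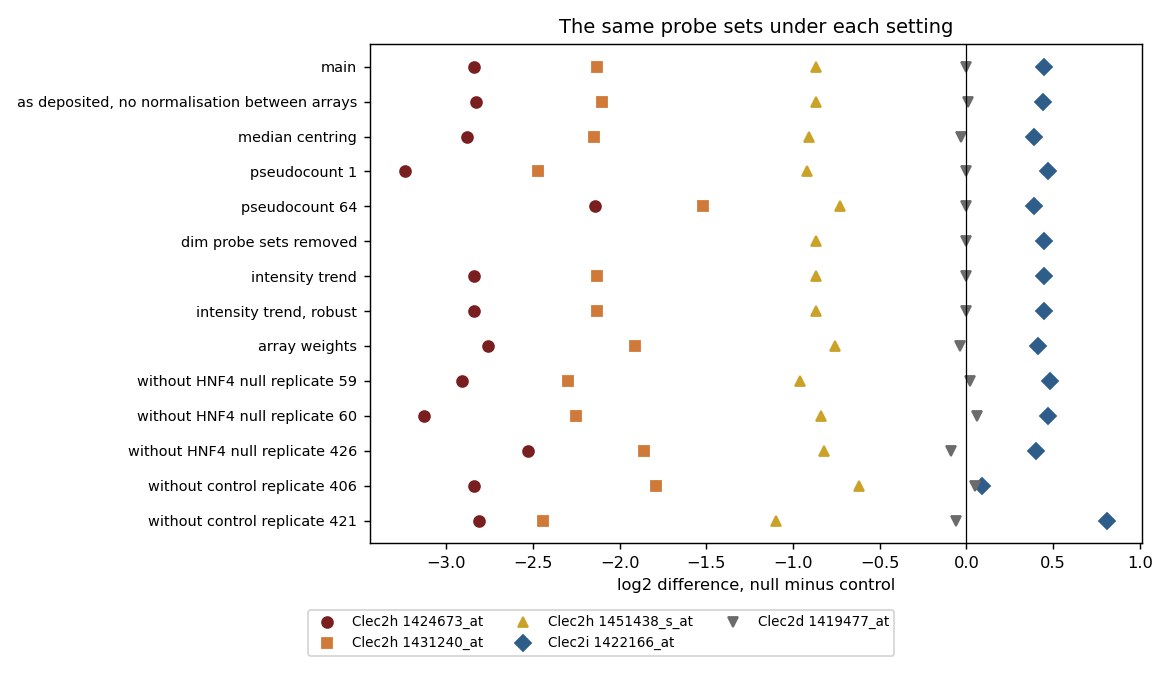
Log2 difference, HNF4 null minus control, of the 3 Clec2h probe sets, Clec2i and Clec2d under each setting (rows; main, the values reported). The Clec2h values stay below 0 in every row in which they were tested, with 1424673_at and 1431240_at absent after removal of dim probe sets, while Clec2i moves from 0.09 without CONTROL_406 to 0.81 without CONTROL_421.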

How the data were processed

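The deposited table gave 1 linear intensity per probe set and array, with biotin-labelled total RNA on Affymetrix arrays per the labels' protocols. The software, scaling and background step are not given in the sources used here, and 196 deposited intensity values below 0 show that some subtraction had been made. Of 22690 probe sets, 64 array controls were left out. A platform annotation of 2016 gave 20380 probe sets 1 symbol, 691 several and 1555 none. Of the first, 20351 matched RefSeq genes by gene ID.

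Values below 0 were set to 0, 16 was added and log2 taken. Array medians spread over 0.11, above a limit of 0.1, so arrays were quantile normalised. HNF4 null was compared with control in limma 3.58.1 (R 4.3.3; lmFit, eBayes, two-sided, Benjamini-Hochberg over all 22626 probe sets, threshold 0.05). No filter was applied. Total degrees of freedom were 9.33, and the 5 arrays limit the precision. P-values measure spread between these fetuses. The scripts were tested on simulated data. Alternatives were no normalisation, median centring, pseudocounts of 1 and 64, removal of the dimmer probe sets, an intensity trend (also robust), array weights and leaving out each array.

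Named were all Clec2 and Klrb1 probe sets, neighbours within 500 kb, each other list's members past the threshold or else its 3 with the smallest p, and the 5 nearest genes per Clec2h probe set. Other neighbours were counted. Members and lists were chosen with earlier results of these data known.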

Additional observations from a re-analysis of the deposited data

How the results depend on the processing

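Over all probe sets 28 passed the threshold, and array weights gave 45, the removal of dim probe sets 17 and a pseudocount of 1 gave 14, with 8 to 104 when 1 array was left out. Of the 6 Clec2 probe sets 2 passed, against 0 with a pseudocount of 1, 1 with a pseudocount of 64, 0 when dim probe sets were removed, which took out 1424673_at, 1431240_at and Clec2g, and 1 with a robust intensity trend. With 1 array left out it was 0 (without CONTROL_421) to 2. With a pseudocount of 64 the differences of 1424673_at and 1431240_at were -2.14 and -1.52, which follows from adding more to dim readings. Clec2g was -0.08 as deposited, -0.26 with a pseudocount of 1 and -0.08 with 64. With 1 array left out, 1451438_s_at ranged from -1.10 to -0.62 and Clec2i from 0.09 to 0.81.

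Among the named genes of the lists, signs turned for values near 0. Klrb1b 1422065_at was 0.13 without CONTROL_421 (-0.33 to 0.13 with 1 array left out), and as deposited 1422067_at was 0.01. Klrb1f was -0.05 with array weights, -0.07 without null_426 and -0.0058 without CONTROL_406 (-0.07 to 0.06). Hbb-bh1 was -0.01 without CONTROL_406 (-0.01 to 0.86) and Hbb-y was -0.05 without null_426 (-0.05 to 0.63). The cause was not tested. In the other alternatives, 464 values of listed genes kept direction and side of the threshold, 10 calls were lost (Mep1b, Cdhr5 and Muc3) and 1 was gained (Ttr). No paired analysis was possible because the groups share no replicate numbers. A lone control took its spread from the nulls.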

Other observations

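The repeated HNF4 core of the Clec2h promoter was set beside the array values of other genes that have it, as a description chosen after the Clec2h promoter was read. Besides Clec2h, 13 genes with 2 or more AAAGTCC matches in a promoter window were measured, by 24 probe sets, and their differences ran from -0.47 to 0.35. By limma 0 of the 24 passed the threshold and 0 had an unadjusted p under 0.05. Among them were Igfbp4, a binding protein of insulin-like growth factors, Bche, a cholinesterase, and B2m, the light chain of class I molecules. Treh, the trehalase of the brush border, was another and differed by -0.0038. Treh was dim, at 15.8 to 28.0, inside the range of the eye, tooth and testis genes, so its difference says little.

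With the Clec2 genes left out, 159 genes with AAAGTCCA in a window were measured by 245 probe sets. Of these limma called 1 lower (0.408%), that of Sult1b1, and 0 higher. The median difference of the 245 was -0.0079, against 0.01 over the 16297 probe sets whose gene has a window in the table. Of those 16297, 0.0798% were called lower. Sult1b1, named here after its values were seen, is the gene nearest to 1424673_at and 1431240_at in its pattern over the arrays. It has the full CAAAGTCCA in 1 of its windows, after the annotated start. The 88 probe sets of genes with CAAAGTCCA had a median of -0.07, and 1 of them was called lower (1.14%), again that of Sult1b1. Differences below 0 made up 60.2% with CAAAGTCCA, 52.7% with AAAGTCCA and 47.6% with AAAGTCC, against 48% of all with a window. A count of 1 is too small to relate these letters to the differences.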
